A study of Caenorhabditis elegans with 12 samples.

Results

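acs-2 and 5 regulators of worm fat metabolism, nhr-49, nhr-80, nhr-13, mdt-15 and sbp-1, were measured in whole Caenorhabditis elegans at the last larval stage (L4). The members are every probe set on the array that is annotated to 1 of these 6 symbols alone. There are 8 such probe sets among 22625, since acs-2 and nhr-49 have 2 each, and all 8 were bright enough to be tested. The genes were taken up because of how acs-2 behaves in these same arrays: the set was chosen by the acs-2 values, which are lower in tax-6 null and in the aak-2 o/e strain than in WT. The values of every strain enter that pattern, so all acs-2 differences are given below as a description with no test.

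RNA from 12 pools of 3000 worms was hybridised to Affymetrix arrays, 3 pools for each of 4 strains. The strain labelled crh-1 null carries the allele crh-1 (nn3315), and crh-1 encodes the transcription factor CREB. The strain labelled tax-6 null is RB1667 tax-6(ok2065) IV, and tax-6 codes for the calcineurin A subunit, a calcium-activated phosphatase. The strain labelled aak-2 o/e is AGD383, an N2 background with the transgene uthIs202, in which an aak-2c promoter drives residues 1 to 321 of the protein kinase AAK-2 (the alpha subunit of AMPK, a sensor of low energy), fused to Tomato with a rol6 marker. WT is N2. One label field of the aak-2 o/e samples reads "aak-2 null", whereas the titles and the strain field describe overexpression, which is followed here. Larvae hatched without food were grown on OP50 bacteria and frozen at L4, at times chosen for each strain's speed of development, and the replicate pools of a strain were prepared on separate days, per the labels.

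acs-2 encodes an acyl-CoA synthetase, an enzyme that joins fatty acids to coenzyme A so that they can be broken down by beta-oxidation, and it is best known as a gene that fasting induces through the nuclear receptor NHR-49. NHR-49 has a role in worms like that of PPAR-alpha and HNF4 in mammals. It acts on both fat breakdown and fatty acid desaturation, with the nuclear receptors NHR-80 and NHR-13 as partners and MDT-15, a subunit of the Mediator complex, as coactivator. MDT-15 also serves SBP-1, the worm form of the SREBP factors that drive lipid synthesis. Much of this regulation takes place in the intestine, the main fat store of the worm.

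The arrays had medians between 5.32 and 5.45 on the log2 scale, where 1 unit is a 2-fold difference, and 57.2 to 58.1% of probe sets reached a log2 value of 4. Correlations between replicates were 0.993 to 0.994 in crh-1 null, 0.974 to 0.994 in tax-6 null, with 0.989 to 0.993 in aak-2 o/e, against 0.993 to 0.995 in WT, with replicate 1 of tax-6 null apart from the other 2. The detected crh-1 probe set was higher in crh-1 null, at 8.62 ± 0.19, than in WT, at 7.16 ± 0.09 (SD, n = 3 each, adjusted p = 1.57e-05). The 2 aak-2 probe sets did not rise in aak-2 o/e: they averaged 8.59 and 6.44 there, against 9.0 and 6.91 in WT, and the second was called lower (adjusted p = 0.126 and 0.0129). rol-6, the gene of the transgene marker, averaged 12.93 in aak-2 o/e and 13.22 in WT and was not called (adjusted p = 0.115). The tax-6 probe set was too dim to test, at 3.24 in tax-6 null and 3.71 in WT. Probe positions relative to the deletions and the transgene were not analysed here, so these values do not check the labels, and every direction below rests on the labels. A probe set was called changed when its adjusted p, from limma with Benjamini-Hochberg adjustment over all 13396 probe sets tested, was under 0.05.

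acs-2 had log2 values of 5.69, 7.93 and 7.92 in crh-1 null, 5.18, 5.13 and 5.96 in tax-6 null, with 5.96, 4.87 and 4.63 in aak-2 o/e, against 8.56, 8.62 and 8.87 in WT on its brighter (first) probe set. WT was highest on every array, aak-2 o/e and tax-6 null were low on every array, and crh-1 null held 2 arrays near WT and 1 within the range of the low strains. The second acs-2 probe set gave the same picture, with 4.95, 6.94 and 6.82 in crh-1 null, 4.65, 4.41 and 5.49 in tax-6 null, with 4.99, 4.08 and 3.58 in aak-2 o/e, against 7.53, 7.48 and 7.01 in WT. The first probe set exceeded the second by 0.47 to 1.86 on each of the 12 arrays, and the 2 profiles differed by a root mean square of 0.34 once each was centred on its own mean. Whole worms were measured, so fewer cells of a type and less RNA per cell cannot be told apart.

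**Figure D1:**
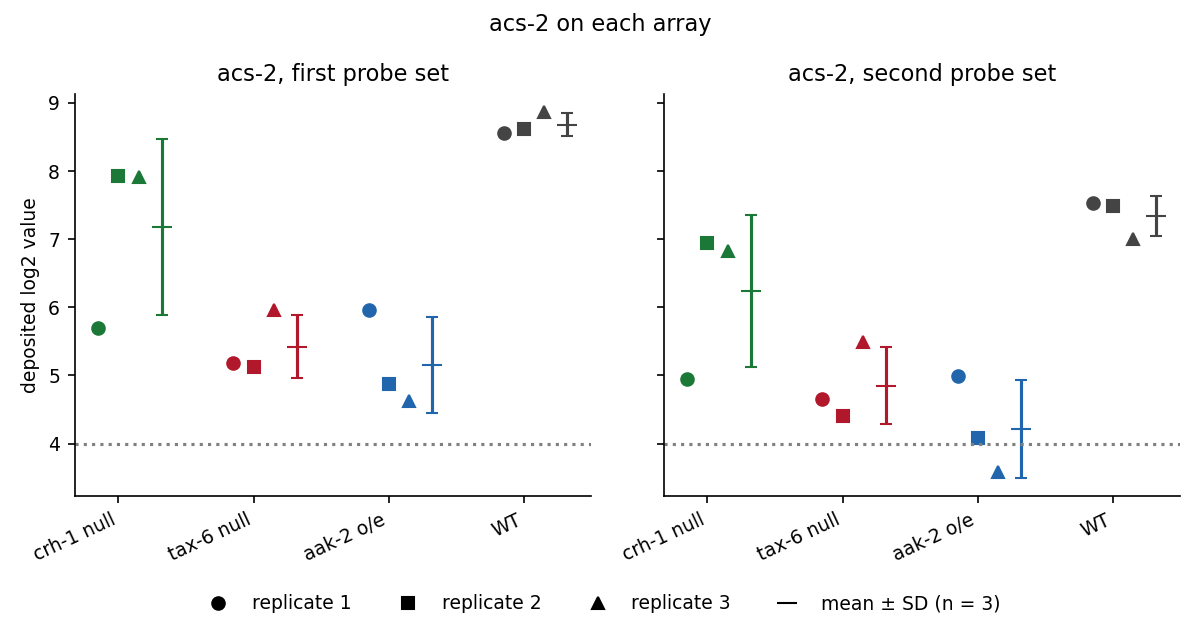
Deposited log2 values of the 2 acs-2 probe sets (vertical axis) on each array, by strain; symbols mark replicates, bars give the mean ± SD of 3 arrays, and the dotted line is the detection filter at 4. The 3 WT arrays lie above all others, and replicate 1 of crh-1 null lies at 5.69 and 4.95, far below the other 2 arrays of that strain.

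Against WT, acs-2 differed by -3.26 ± 0.53 (SE) in tax-6 null, which is 9.56-fold lower, and by -3.53 ± 0.53 in aak-2 o/e, which is 11.5-fold lower. On the second probe set the differences were -2.49 ± 0.5 in tax-6 null (5.62-fold lower) and -3.12 ± 0.5 in aak-2 o/e (8.71-fold lower). No array of either strain overlapped WT: the gaps between the ranges were 2.6 and 1.52 in tax-6 null and 2.6 and 2.02 in aak-2 o/e on the first and second probe sets. Ranges that lay wholly below WT were common, at 31.8% of the probe sets tested for tax-6 null and 33.8% of those for aak-2 o/e, and nothing is read from this for a gene chosen in the same comparison.

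Between tax-6 null and the aak-2 o/e strain, the acs-2 ranges overlapped on both probe sets. The difference of tax-6 null from aak-2 o/e was 0.27 ± 0.53 (SE) on the first probe set and 0.63 ± 0.5 on the second, and the 2 strains are not shown to share 1 level.

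In crh-1 null the mean of acs-2 was 2.83-fold below WT on the first probe set, a log2 difference of -1.5 ± 0.53 (SE). On the second probe set it was -1.1 ± 0.5. All 3 arrays lay below WT on both probe sets, by a gap of 0.62 on the first and 0.07 on the second. A range wholly below WT was found for 22.2% of probe sets in this comparison. Replicate 1 decided the size of the difference: without it the values were -0.76 on the first probe set and -0.46 on the second. Without replicate 2 of crh-1 null, which leaves replicate 1 with more weight, the first probe set was at -1.88.

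Against crh-1 null, acs-2 differed by -1.76 in tax-6 null and by -2.03 in aak-2 o/e on the first probe set, and by -1.39 and -2.02 on the second. The ranges overlapped only through replicate 1 of crh-1 null. Without that array the differences were -2.5 and -2.77 on the first probe set and -2.03 and -2.66 on the second. With it left out, acs-2 was highest in WT, next in crh-1 null and lowest in the other two strains, whose ranges overlapped.

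Replicate 1 of crh-1 null differed from its strain in acs-2 far more than in nearly all other genes. Its acs-2 value minus the mean of the other 2 arrays was -2.24 on the first probe set and -1.93 on the second. Of 10365 genes tested, each represented by its brightest probe set, 0 lay further below. The array was otherwise close to its strain: 24 genes (0.232%) differed by more than 1, and the median difference in size was 0.114. Among the regulators on this array, the same difference was -0.35 for mdt-15 and 0.41 for nhr-13, while nhr-49 on its first probe set, nhr-80 and sbp-1 lay within 0.1. The second nhr-49 probe set had 8.0 there, against 8.08 and 8.21 on the other 2 arrays.

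**Figure D2:**
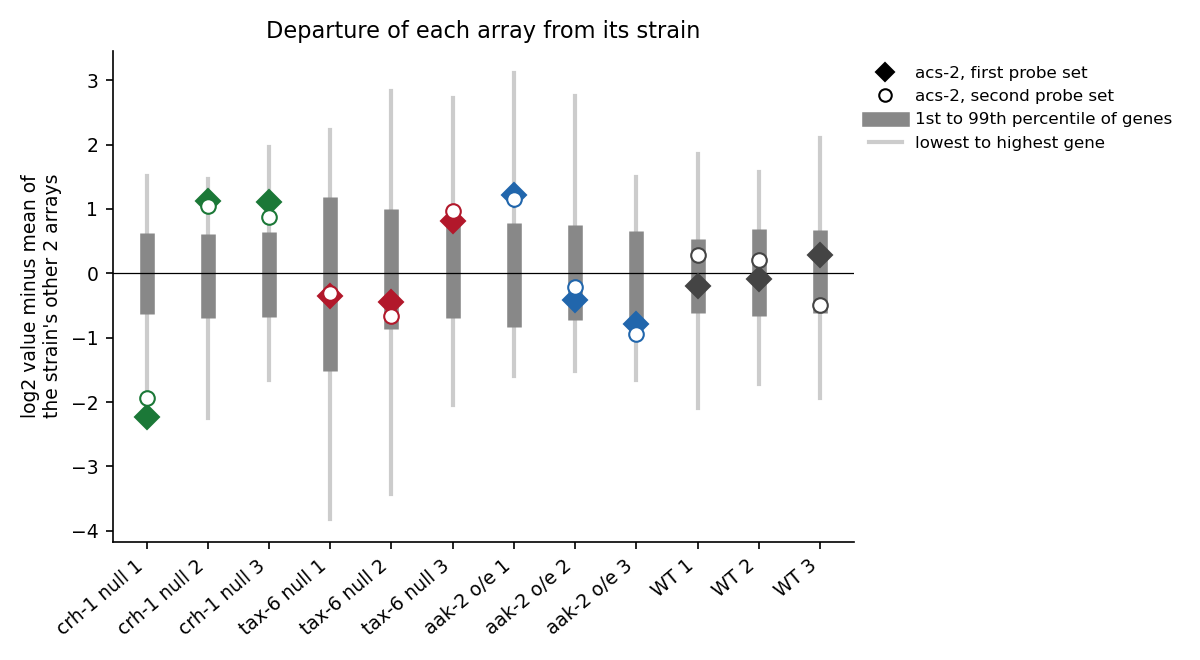
For each of the 12 arrays, the log2 value minus the mean of the strain's other 2 arrays (vertical axis): diamonds and open circles are the 2 acs-2 probe sets, dark bars span the 1st to 99th percentile of 10365 genes and light lines run from the lowest to the highest gene. In replicate 1 of crh-1 null acs-2 is the lowest gene, at -2.24, while the bar spans -0.63 to 0.63.

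Within strains acs-2 was among the most variable genes, in large part through that array. Its pooled standard deviation between replicates was 0.78, larger than in 99.8% of the 10365 genes, whose median was 0.2. Without replicate 1 of crh-1 null it was 0.43, larger than in 95.2% of genes. In aak-2 o/e replicate 1 lay 1.21 above the other 2 arrays, and in tax-6 null replicate 3 lay 0.81 above, each mirrored by the second probe set, at 1.16 and 0.96. The 3 WT arrays differed least on the first probe set, with a standard deviation of 0.17. nhr-13 had a pooled standard deviation of 0.37, and the other 4 regulators had 0.15 to 0.21, near the median gene.

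The 5 genes below tracked acs-2 most closely over the 12 arrays, by the root mean square difference between profiles centred on their own means. These were F18E3.11 (0.91), asp-17 (0.94), which belongs to the aspartyl protease class, T05A8.6 (0.95), F32D8.12 (0.97) and F17H10.1 (0.98), of 10364 genes compared. The spread of acs-2 around its own mean was 1.56, so the likeness is moderate, and 0 genes came closer than its second probe set. F18E3.11 averaged 10.16 for crh-1 null, 9.16 for tax-6 null, 9.03 for aak-2 o/e and 10.94 for WT. asp-17 also shared the low value in replicate 1 of crh-1 null, with 5.0 there and 6.22 and 6.17 on the other 2 arrays. In tax-6 null asp-17 was near the floor, with 3.17, 2.61 and 2.49. T05A8.6 was near the floor in all 3 altered strains, averaging 2.75 for crh-1 null, 2.43 for tax-6 null and 2.67 for aak-2 o/e, against 5.26 in WT. It was bright enough to be tested only through its WT arrays. In crh-1 null it stayed near the floor on every array, whereas acs-2 lay near WT on 2 of the 3.

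In each strain the regulators differed less from WT than acs-2 did. Since acs-2 was chosen for its fall, nothing is read from that contrast. Against WT, 2 of the 6 regulator probe sets were called in crh-1 null, where 19.8% of all probe sets were called, 2 of 6 in tax-6 null, where 43.8% were, and 1 of 6 in aak-2 o/e, where 31.9% were. Their median differences were 0.29, 0.32 and 0.05, beside medians of -0.01, -0.09 and -0.14 over all probe sets tested. The shares called are not set apart from the background, and no regulator differed from WT by more than 0.75 in any strain.

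nhr-49, which encodes the receptor itself, gave 2 different readings. On its first probe set it had 10.31, 10.21 and 10.24 in crh-1 null, 10.14, 10.42 and 10.68 in tax-6 null, with 10.28, 9.85 and 9.84 in aak-2 o/e, against 10.22, 10 and 9.85 in WT. All strains overlapped WT, and the differences of 0.23, 0.39 and -0.03 were not called (adjusted p = 0.404, 0.069 and 0.911). In tax-6 null the first probe set passed without replicate 1 of tax-6 null (0.53, adjusted p = 0.0182) and without replicate 1 of aak-2 o/e (adjusted p = 0.0442).

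The second nhr-49 probe set had 8.0, 8.08 and 8.21 in crh-1 null, 7.86, 7.94 and 8.08 in tax-6 null, with 7.36, 7.25 and 7.38 in aak-2 o/e, against 7.73, 7.76 and 7.67 in WT. The 3 arrays of crh-1 null and of tax-6 null lay above WT and the 3 arrays of aak-2 o/e lay below it. Ranges wholly above WT were found for 19.6% of probe sets in crh-1 null and 21.8% in tax-6 null. Ranges wholly below it were found for 33.8% in aak-2 o/e. nhr-49 fell by 0.39 ± 0.1 in aak-2 o/e on this probe set (1.31-fold lower, adjusted p = 0.0115), in every alternative tried. It rose by 0.38 ± 0.1 in crh-1 null (adjusted p = 0.0197), a call that was lost without replicate 1 or 3 of WT or 2 or 3 of crh-1 null (adjusted p = 0.0523, 0.071, 0.0512 and 0.0909). In tax-6 null it was 0.24 higher (adjusted p = 0.0741), and it passed without replicate 1 of that strain (0.29, adjusted p = 0.0374).

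nhr-80, the receptor partnered with NHR-49 in desaturase control, had 5.44, 5.61 and 5.37 in crh-1 null, 5.39, 5.84 and 5.77 in tax-6 null, with 5.28, 5.0 and 5.17 in aak-2 o/e, against 5.39, 5.43 and 5.48 in WT. All 3 aak-2 o/e arrays lay below the WT range, as was found for 33.8% of all probe sets tested. The arrays of crh-1 null and tax-6 null overlapped it. The differences from WT were 0.04 for crh-1 null, 0.24 for tax-6 null and -0.28 for aak-2 o/e, and none was called (adjusted p = 0.898, 0.175 and 0.126). Without replicate 1 of tax-6 null, the tax-6 null difference was 0.37 (adjusted p = 0.019) and that of aak-2 o/e passed at an adjusted p of 0.0444.

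nhr-13, another partner of NHR-49, had 5.6, 5.19 and 5.19 in crh-1 null, 5.14, 4.96 and 3.97 in tax-6 null, with 5.62, 5.61 and 6.08 in aak-2 o/e, against 4.97, 5.19 and 5.18 in WT. It was high on all 3 aak-2 o/e arrays and lowest on replicate 3 of tax-6 null, which stood apart from the other 2. Against WT the difference was -0.42 in tax-6 null (adjusted p = 0.216) and 0.66 ± 0.26 in aak-2 o/e (adjusted p = 0.0751), and neither was called. The tax-6 null difference was -0.06 without its replicate 3 and -0.77, past the threshold, with array weights (adjusted p = 0.0157). The aak-2 o/e difference passed without replicate 1 or 3 of tax-6 null (adjusted p = 0.0419 and 0.0101), arrays that enter only through the shared estimate of spread, and with array weights (0.0396) or only the 2 strains fitted (0.0185).

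mdt-15, the Mediator subunit that serves as coactivator for NHR-49 and SBP-1, had 7.43, 7.59 and 7.95 in crh-1 null, 8.04, 8.09 and 8.05 in tax-6 null, with 7.61, 7.34 and 7.47 in aak-2 o/e, against 7.19, 7.58 and 7.16 in WT. The tax-6 null arrays were above every array of the other 3 strains. Ranges wholly above WT were found for 21.8% of probe sets in tax-6 null. mdt-15 rose 1.68-fold in tax-6 null (0.75 ± 0.15, adjusted p = 0.00188), in every alternative tried. It was 0.35 higher in crh-1 null (adjusted p = 0.15) and 0.16 higher in aak-2 o/e (adjusted p = 0.454), neither called.

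sbp-1, the SREBP gene, had 7.28, 7.38 and 7.33 in crh-1 null, 7.54, 7.33 and 7.01 in tax-6 null, with 7.14, 6.58 and 6.89 in aak-2 o/e, against 6.65, 6.75 and 6.83 in WT. Every array of crh-1 null and tax-6 null lay above WT, and aak-2 o/e overlapped it. Ranges wholly above WT were found for 19.6% of all probe sets in crh-1 null and 21.8% in tax-6 null. sbp-1 rose by 0.59 ± 0.16 in crh-1 null (1.5-fold, adjusted p = 0.0204) and by 0.55 ± 0.16 in tax-6 null (1.46-fold, adjusted p = 0.0146), and was 0.13 higher in aak-2 o/e, not called (adjusted p = 0.57). The tax-6 null call missed the threshold without replicate 1 of WT (adjusted p = 0.0536), and the crh-1 null call without replicate 1 or 2 of WT or 2 or 3 of crh-1 null (adjusted p = 0.0731, 0.0597, 0.0658 and 0.0635) or with no filter on dim probe sets (0.0563). The probe sets of nhr-80 and sbp-1 are of a design that can also bind related transcripts.

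**Figure D3:**
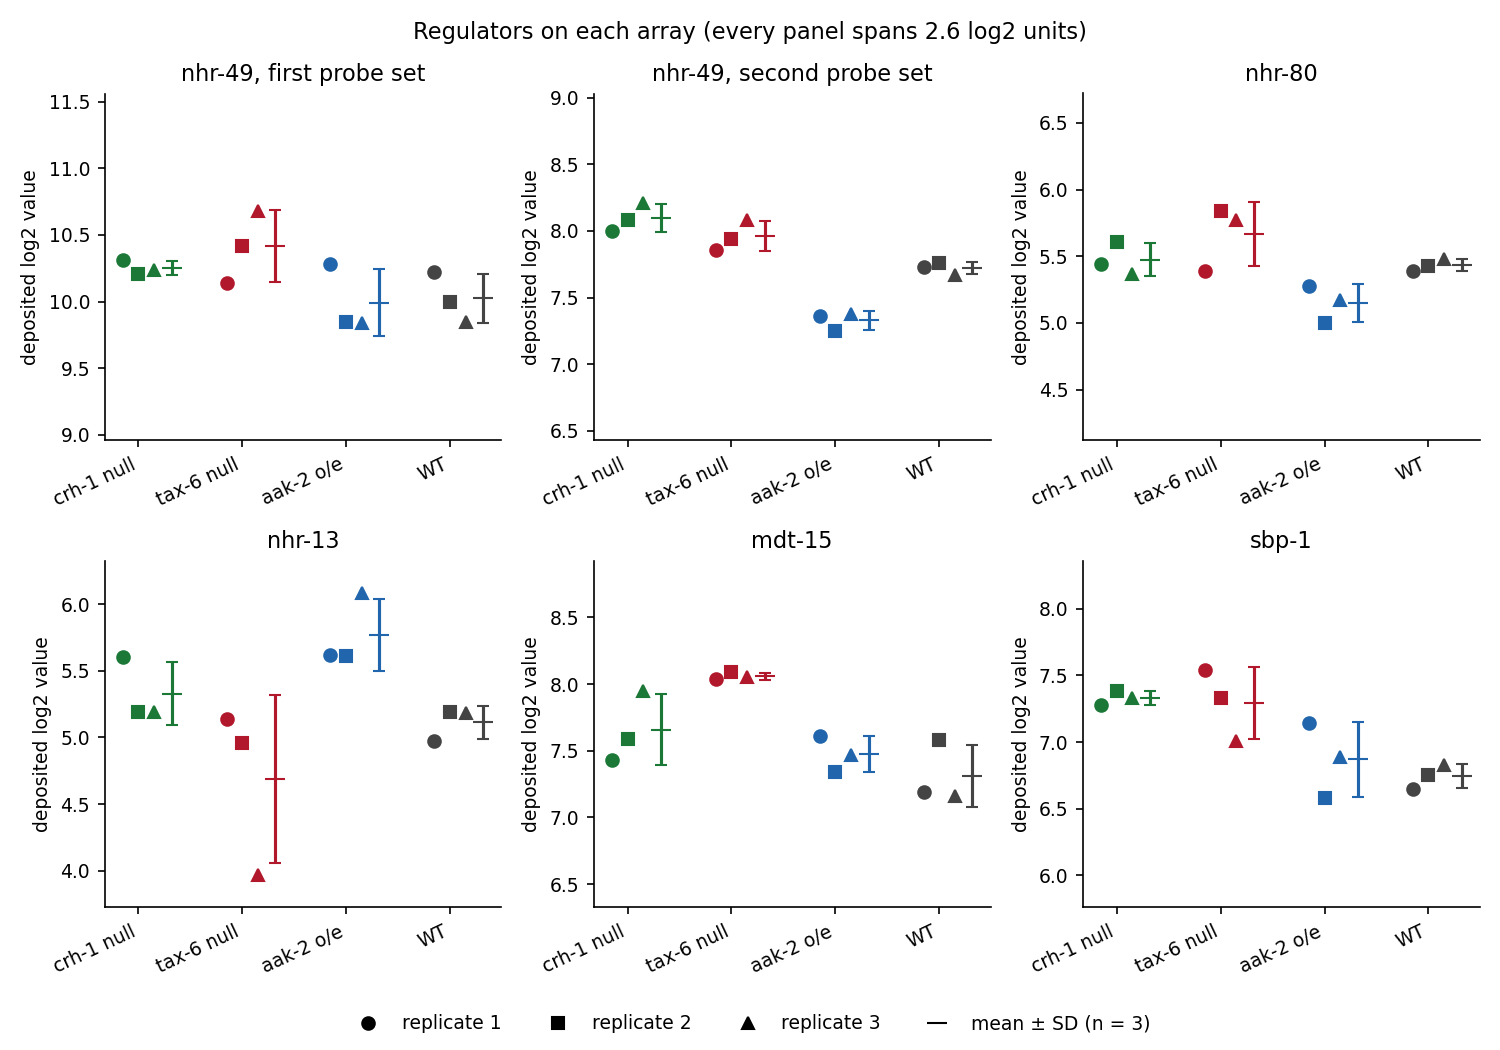
Deposited log2 values of the 6 regulator probe sets on each array (vertical axis, each panel spanning the same number of units), by strain, with the mean ± SD of 3 arrays. mdt-15 in tax-6 null (8.04 to 8.09) and the second nhr-49 probe set in aak-2 o/e (7.25 to 7.38) lie outside the WT range.

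Between tax-6 null and the aak-2 o/e strain, the 2 in which acs-2 is low, all 6 regulator probe sets were called, where 48.1% of all probe sets were. Higher in tax-6 null were nhr-49 on its second probe set (0.63 ± 0.1, adjusted p = 0.000247), nhr-80 (0.52 ± 0.13, adjusted p = 0.00654) and mdt-15 (0.59 ± 0.15, adjusted p = 0.0071). nhr-13 was 2.12-fold lower in tax-6 null (-1.08 ± 0.26, adjusted p = 0.00457). These 4 calls held in every alternative tried. The first nhr-49 probe set (0.43, adjusted p = 0.0482) and sbp-1 (0.42, adjusted p = 0.0463) were also called higher in tax-6 null, but the first lost its call without any 1 of 9 arrays and the second without any 1 of 10, with adjusted p up to 0.185 and 0.184. With replicate number as a block these 2 had adjusted p of 0.0729 and 0.0634.

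Between tax-6 null and crh-1 null, 0 of the 6 regulator probe sets were called, where 36.7% of all were. The nearest were mdt-15, 0.4 higher in tax-6 null (adjusted p = 0.0586), and nhr-13, at -0.64 (adjusted p = 0.0761). Both had ranges that did not overlap, as did 48.6% of all probe sets tested. mdt-15 passed without replicate 2 of WT (adjusted p = 0.0416) and without replicate 3 of crh-1 null (adjusted p = 0.017), and nhr-13 and nhr-80 passed without tax-6 null replicate 1 (adjusted p = 0.0225 and 0.0389). Between aak-2 o/e and crh-1 null, 2 of 6 were called, where 44.3% of all were. nhr-49 was 1.7-fold lower in aak-2 o/e on its second probe set (-0.76 ± 0.1, adjusted p = 5.33e-05), in every alternative tried. sbp-1 fell by 0.46 there (adjusted p = 0.034), a call lost without any 1 crh-1 null array or without aak-2 o/e replicate 2 or 3 (adjusted p = 0.063 to 0.138).

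The genes that worm studies describe as depending on NHR-49 did not move together. Of 9 listed besides acs-2, 6 were bright enough to test. In crh-1 null 0 rose and 2 fell, where 9.88% of the 10365 genes were called higher and 10.7% lower. In tax-6 null 1 rose and 2 fell, where 18.7% of genes were called higher and 26.3% lower. In aak-2 o/e 1 rose and 1 fell, where 14.2% were called higher and 19.3% lower. In either direction these are 33.3%, 50% and 33.3% of the 6 genes, beside 20.6%, 45% and 33.5% of all genes. With 6 genes these shares are not set apart from the background, and nothing is read from them. The count in crh-1 null ran from 1 to 3 and that in aak-2 o/e from 0 to 4 with single arrays left out. Their median differences were -0.37, -0.26 and -0.34, beside -0.01, -0.09 and -0.15 over all genes. fmo-2 (2.11 to 2.2) and fat-5 (2.51 to 2.75) lay near the floor on all 12 arrays, and cpt-5 (2.39 to 4.16) reached 4 on only 2.

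fat-7, a stearoyl-CoA desaturase that makes oleate, differed from WT in opposite directions among the strains. It had 5.26, 5.48 and 5.48 in crh-1 null, 9.8, 9.38 and 9.12 in tax-6 null, with 7.18, 7.36 and 7.81 in aak-2 o/e, against 6.62, 6.95 and 6.78 in WT. No 2 strains overlapped: tax-6 null was highest, then aak-2 o/e, then WT, and crh-1 null was lowest. For a given pair of strains, ranges that did not overlap were found for 43% to 60.1% of all genes tested. fat-7 rose 6.27-fold in tax-6 null (2.65 ± 0.19, adjusted p = 7.59e-07) and fell 2.6-fold in crh-1 null (-1.38 ± 0.19, adjusted p = 0.000219), in every alternative tried. Its rise of 0.67 in aak-2 o/e (adjusted p = 0.0201) was lost without replicate 1 or 3 of WT or replicate 3 of aak-2 o/e (adjusted p = 0.0786, 0.0541 and 0.0793) or with no filter (0.0612). Between tax-6 null and the aak-2 o/e strain, whose acs-2 ranges overlapped, fat-7 was 3.95-fold higher in tax-6 null (1.98, adjusted p = 3.82e-06). In replicate 1 of crh-1 null, where acs-2 differed from the other 2 arrays by -2.24, fat-7 differed by -0.22.

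fat-6, the close relative of fat-7 with the same activity, differed from WT by -0.05 for crh-1 null, 0.2 for tax-6 null and -0.4 for aak-2 o/e, none called (adjusted p = 0.876, 0.278 and 0.0503). The aak-2 o/e difference passed without replicate 1 of tax-6 null (adjusted p = 0.0218) or replicate 3 of aak-2 o/e (-0.5, adjusted p = 0.0318). The fat-6 probe set is of the design that can bind related transcripts.

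Among the NHR-49 dependent genes of beta-oxidation, ech-1.1, an enoyl-CoA hydratase gene, had 5.86, 5.51 and 5.56 in crh-1 null, 5.39, 5.2 and 5.03 in tax-6 null, with 6.56, 5.9 and 6.4 in aak-2 o/e, against 6.14, 6.43 and 6.43 in WT. It was low in crh-1 null and tax-6 null and overlapped WT in aak-2 o/e. ech-1.1 fell 2.18-fold in tax-6 null (-1.13 ± 0.18, adjusted p = 0.000305) and by 0.69 in crh-1 null (adjusted p = 0.0159). The second call was lost without replicate 2 or 3 of WT or of crh-1 null (adjusted p = 0.0638, 0.0613, 0.0635 and 0.0659) or with no filter (0.0533). In aak-2 o/e it differed from WT by -0.05 (adjusted p = 0.874), and the difference of tax-6 null from aak-2 o/e was -1.08 (adjusted p = 0.000295). Its probe set is of the design that can bind related transcripts, as is that of icl-1.

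hacd-1, a hydroxyacyl-CoA dehydrogenase gene, had 9.78, 10.06 and 10.05 in crh-1 null, 9.05, 9.44 and 9.69 in tax-6 null, with 9.31, 9.94 and 9.73 in aak-2 o/e, against 10.14, 10.31 and 10.37 in WT. All 3 altered strains lay below WT on every array. Ranges wholly below WT were common, at 35.2% of genes for aak-2 o/e, 32% for tax-6 null and 22.8% for crh-1 null. It fell by 0.88 in tax-6 null (adjusted p = 0.00244) and by 0.61 in aak-2 o/e (adjusted p = 0.026), and differed by -0.31 in crh-1 null, not called (adjusted p = 0.319). The aak-2 o/e call was lost without replicate 2 or 3 of WT or replicate 1 of aak-2 o/e (adjusted p = 0.0719, 0.0825 and 0.106) or with no filter (0.0723). icl-1, the glyoxylate cycle enzyme, differed from WT by -0.43 for crh-1 null, -0.3 for tax-6 null and -0.51 for aak-2 o/e, none called (adjusted p = 0.155, 0.237 and 0.0601). icl-1 passed in tax-6 null without its replicate 3 (-0.52, adjusted p = 0.0265), and in aak-2 o/e without its replicate 1 (-0.66, adjusted p = 0.0326) or without replicate 1 or 3 of tax-6 null (adjusted p = 0.0323 and 0.0206). acs-11 was 0.44 higher in crh-1 null, just short of a call (adjusted p = 0.0518), and differed by -0.23 for tax-6 null and -0.28 for aak-2 o/e (adjusted p = 0.224 and 0.154). Its crh-1 null difference passed without replicate 3 of WT (0.55, adjusted p = 0.0301), replicate 1 of tax-6 null (adjusted p = 0.0362) or replicate 1 of aak-2 o/e (adjusted p = 0.0268).

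**Figure D4:**
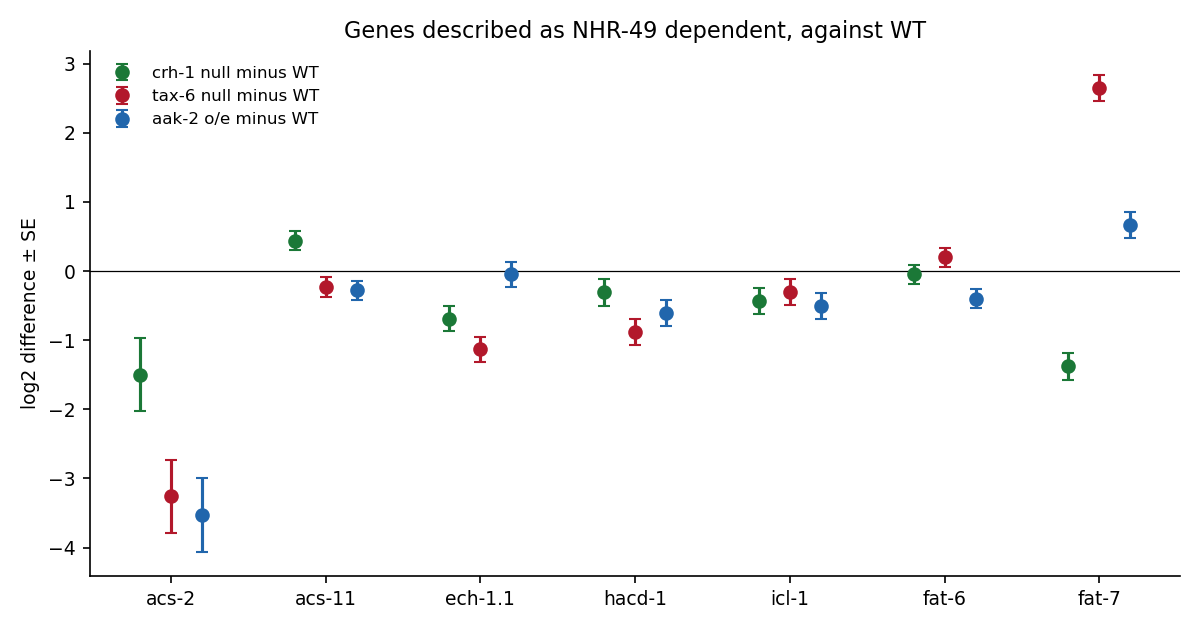
Log2 difference from WT ± SE (vertical axis) of acs-2 and the 6 tested NHR-49 dependent genes, by strain. The mean of acs-2 is below WT in each, whereas fat-7 is at -1.38 for crh-1 null, 2.65 for tax-6 null and 0.67 for aak-2 o/e; the acs-2 points are a description with no test.

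Of 11 intestine markers tested, 1 rose and 1 fell in crh-1 null, 2 rose and 4 fell in tax-6 null, and 0 rose and 2 fell in aak-2 o/e. These are 18.2%, 54.5% and 18.2% of the markers, beside 20.6%, 45% and 33.5% of all genes called in either direction in the same comparisons. Their summed level, on the log2 scale, was 16.27 to 16.31 in crh-1 null, 15.94 to 16.09 in tax-6 null, with 16.02 to 16.15 in aak-2 o/e, against 16.26 to 16.31 in WT. The intestinal selector gene elt-2 differed from WT by -0.36 in crh-1 null (adjusted p = 0.205) and by 0.25 in tax-6 null (adjusted p = 0.278), and fell by 0.58 in aak-2 o/e (adjusted p = 0.0255). pgp-1 lay below 4 on every array of crh-1 null, aak-2 o/e and WT and at 6.09 in tax-6 null. The lower sums stood in the 2 strains with low acs-2, and their part in the acs-2 result was not tested.

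Adult stage markers moved too. Of 7 tested, 0 rose and 4 fell in crh-1 null, 3 rose and 2 fell in tax-6 null, and 5 rose and 1 fell in aak-2 o/e. These are 57.1%, 71.4% and 85.7% of the markers, beside 20.6%, 45% and 33.5% of all genes. Their summed level was 14.9 to 15.18 in crh-1 null, 15.35 to 15.49 in tax-6 null, with 15.72 to 15.85 in aak-2 o/e, against 15.6 to 15.7 in WT, and vit-5 lay below 4 on every crh-1 null array. col-19, a cuticle collagen of the adult, had 4.34, 4.48 and 3.86 in crh-1 null, 12.31, 11.98 and 12.31 in tax-6 null, with 10.31, 9.22 and 10.27 in aak-2 o/e, against 4.1, 5.25 and 4.34 in WT. It rose by 7.63 in tax-6 null (adjusted p = 9.11e-09) and by 5.36 in aak-2 o/e (adjusted p = 5.34e-07), and differed by -0.34 in crh-1 null (adjusted p = 0.58). The strains with high col-19 are those with low acs-2 and with higher fat-7. The summed adult level did not follow col-19, since it lay below WT in tax-6 null and above WT in aak-2 o/e. The part of developmental stage in the acs-2 and fat-7 differences was not tested.

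Markers of other tissues gave the following counts. Of all genes, 33.5% were called in either direction for aak-2 o/e, 45% for tax-6 null and 20.6% for crh-1 null. Each of these lists has 6 or fewer tested markers, so nothing is read from the shares called. Of 6 body wall muscle markers, 0 were called in crh-1 null, and 1 fell in each of the other two strains. Muscle sums were 16.16 to 16.2 in crh-1 null, 15.71 to 15.97 in tax-6 null, with 15.99 to 16.16 in aak-2 o/e, against 15.97 to 16.1 in WT. Of 6 neuron markers, 3 rose in crh-1 null, 2 rose in tax-6 null and 4 fell in aak-2 o/e, with sums of 12.91 to 12.93, 12.99 to 13.03 and 12.21 to 12.45, beside 12.71 to 12.78 in WT. Of 5 epidermis markers, 1 rose and 2 fell in crh-1 null, 1 rose and 1 fell in tax-6 null, and 0 rose and 2 fell in aak-2 o/e. Epidermis sums were 16.44 to 16.54 in crh-1 null, 16.6 to 16.68 in tax-6 null, with 16.65 to 16.83 in aak-2 o/e, against 16.79 to 16.97 in WT. Epidermis sums thus lay below WT in crh-1 null and in tax-6 null. Of 6 germline markers, 0 were called in crh-1 null, 1 fell in tax-6 null and 1 rose in aak-2 o/e, and the sums of all strains overlapped, at 12.23 to 12.98 in tax-6 null and 12.66 to 12.85 in WT.

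The acyl-CoA synthetase family, to which acs-2 belongs, was mixed. Of the 19 other members tested, 2 rose and 4 fell in crh-1 null, 2 rose and 9 fell in tax-6 null, and 4 rose and 4 fell in aak-2 o/e. These are 31.6%, 57.9% and 42.1% of the members, beside 20.6%, 45% and 33.5% of all genes. Their medians were -0.22, -0.41 and -0.16, beside -0.01, -0.09 and -0.15 over all genes. The crh-1 null count of 6 was 2 without replicate 2 or 3 of that strain, 3 without replicate 2 of WT and 10 without replicate 1 of tax-6 null, and the tax-6 null count of 11 was 7 without replicate 2 of WT. acs-6 fell by 1.43 in tax-6 null (adjusted p = 5.51e-05) but rose by 1.59 in aak-2 o/e (adjusted p = 3.65e-05), and fell by 0.7 in crh-1 null (adjusted p = 0.0149). acs-10 rose by 1.94 in aak-2 o/e (adjusted p = 2.29e-06), and acs-18 rose there by 1.68 (adjusted p = 0.00158) and fell by 1.06 in tax-6 null (adjusted p = 0.0168). The falls in aak-2 o/e were led by acs-19 (-0.86, adjusted p = 0.00185), acs-7 (-0.83, adjusted p = 0.00438) and acs-3 (-0.73, adjusted p = 0.00173).

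In tax-6 null, acs-17 rose by 1.3 (adjusted p = 2.67e-05) and acs-16 by 0.5 (adjusted p = 0.0032), while acs-1, which worm studies tie to branched-chain fatty acids, fell by 0.81 (adjusted p = 0.000202). acs-1 also fell in crh-1 null, by 0.58 (adjusted p = 0.00429). There, acs-20 fell most, by 1.41 (adjusted p = 2.93e-05), and acs-17 and acs-14 rose by 0.51 and 0.47 (adjusted p = 0.0302 and 0.0233). The crh-1 null calls of acs-6, acs-17 and acs-14 were each lost when single arrays of crh-1 null or WT were left out (adjusted p up to 0.0761, 0.107 and 0.107), and the tax-6 null call of acs-18 without WT replicate 2 (adjusted p = 0.0531). acs-18, acs-19 and acs-20 are read by probe sets that can bind related transcripts.

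Fatty acid synthesis genes, the kind that SREBP factors regulate, also moved both ways. Of 23 tested, 3 rose and 3 fell in crh-1 null, 8 rose and 6 fell in tax-6 null, and 2 rose and 9 fell in aak-2 o/e. The shares were 26.1%, 60.9% and 47.8%, where 20.6%, 45% and 33.5% of all genes were called. The medians were 0.02, 0.1 and -0.33, where those of all genes were -0.01, -0.09 and -0.15. The aak-2 o/e count of 11 was 7 without replicate 1 of WT. In crh-1 null, the fatty acid synthase fasn-1 rose by 0.92 (adjusted p = 0.000396) and the acetyl-CoA carboxylase pod-2, read by a probe set that can bind related transcripts, by 0.78 (adjusted p = 0.000131). Both were also called higher in tax-6 null, by 0.46 and 0.37 (adjusted p = 0.0174 and 0.0121). The second fasn-1 probe set was not called there (0.46, adjusted p = 0.0982). In aak-2 o/e pod-2 was called lower (-0.47, adjusted p = 0.00422). Those further calls were not rerun under the alternatives. The elongase elo-4 fell in all 3 strains, by 1.76 in crh-1 null (adjusted p = 1.3e-05), by 1.27 in tax-6 null (adjusted p = 0.000117) and by 0.76 in aak-2 o/e (adjusted p = 0.00622). The elongase elo-7 fell by 1.53 in tax-6 null (adjusted p = 2.79e-06) and rose by 1.28 in aak-2 o/e (adjusted p = 1.85e-05).

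The desaturase fat-3 rose by 0.6 in tax-6 null (adjusted p = 0.00532) and fell by 0.97 in aak-2 o/e (adjusted p = 0.000316), where fat-4 also fell, by 0.63 (adjusted p = 0.00492). In tax-6 null the ATP citrate lyase gene acly-1 fell by 0.63 (adjusted p = 0.00235) and lpin-1, a lipin, rose by 0.76 (adjusted p = 0.0121). In crh-1 null, elo-2 rose by 0.38 (adjusted p = 0.0278) and elo-7 fell by 0.42 (adjusted p = 0.0417), calls that were lost without each of 5 and 7 single arrays (adjusted p up to 0.109 and 0.174). By contrast, elo-2 was called lower in tax-6 null (-0.34, adjusted p = 0.0261) and in aak-2 o/e (-0.54, adjusted p = 0.00266). Those lower calls of elo-2 were not rerun under the alternatives.

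Of 24 other Mediator subunits tested, 0 were called in crh-1 null, 1 rose in tax-6 null, and 1 rose and 2 fell in aak-2 o/e. These are 0%, 4.17% and 12.5% of the subunits, beside 20.6%, 45% and 33.5% of all genes. With single arrays left out the counts ran from 0 to 1, 0 to 2 and 2 to 6, the highest of each without replicate 1 of tax-6 null. mdt-31 rose by 0.77 in tax-6 null (adjusted p = 0.0137), a call lost without WT replicate 3 (adjusted p = 0.051). In aak-2 o/e mdt-17 rose by 0.81 (adjusted p = 0.00019), mdt-28 fell by 0.38 (adjusted p = 0.00661) and let-19 fell by 0.43 (adjusted p = 0.046), the last lost without each of 8 single arrays (adjusted p up to 0.164) and not called on its second probe set (-0.23, adjusted p = 0.367). The probe sets of mdt-28 and let-19 can bind related transcripts. Of the 3 probe sets of mdt-17, 1 was bright enough to test. It lay near the filter of 4 in crh-1 null, at 3.94 on replicate 1 and a mean of 4.04 on the other 2 arrays. The rise of mdt-15 in tax-6 null, 0.75, stood beside a median of -0.02 for these subunits.

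Other regulators of fat metabolism were called both ways in each strain, though mostly higher in tax-6 null. Of 25 tested, 3 rose and 1 fell in crh-1 null, 12 rose and 2 fell in tax-6 null, and 3 rose and 5 fell in aak-2 o/e. In tax-6 null 18.7% of all genes were called higher and 26.3% lower. The shares were 16%, 56% and 32%, where 20.6%, 45% and 33.5% of all genes were called, and the medians were 0.21, 0.42 and -0.17, where those of all genes were -0.01, -0.09 and -0.15. The aak-2 o/e count of 8 was 2 without replicate 3 of WT or replicate 1 of aak-2 o/e, and 3 to 5 without any 1 of the other arrays of those strains. The crh-1 null count of 4 was 7 without replicate 1 of WT. nhr-68, a nuclear receptor known from propionate breakdown, fell in all 3 strains, by 0.83 in crh-1 null (adjusted p = 0.00359), by 2.62 in tax-6 null (adjusted p = 2.51e-07) and by 0.54 in aak-2 o/e (adjusted p = 0.0276). The transcription factor pqm-1 rose by 1.26 in crh-1 null (adjusted p = 0.00296) and by 1.66 in tax-6 null (adjusted p = 0.000202). In tax-6 null, klf-3, a Kruppel-like factor, rose by 1.54 (adjusted p = 7.43e-06) and nhr-69 by 1.02 (adjusted p = 0.000445), and nhr-114 fell by 1.12 (adjusted p = 0.0268).

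nhr-23, a nuclear receptor of the moulting cycle, rose by 1.31 in crh-1 null (adjusted p = 1.19e-05), while its second probe set was 0.57 higher there (adjusted p = 0.0673). In tax-6 null its 2 probe sets were called in opposite directions, at 0.39 and -0.6 (adjusted p = 0.0295 and 0.0303), so its direction there is unsettled. nhr-10 rose by 0.61 in crh-1 null (adjusted p = 0.0282), while its second probe set was at 0.29 (adjusted p = 0.309). In aak-2 o/e skn-1, nhr-66 and hlh-30 rose by 0.68, 0.54 and 0.46 (adjusted p = 0.0277, 0.028 and 0.0328) on their brightest probe sets. Their other probe sets were not called there, with 0.26 and 0.26 for skn-1 (adjusted p = 0.214 and 0.477), 0.07 for nhr-66 (adjusted p = 0.799) and 0.16 for hlh-30 (adjusted p = 0.547). In the same strain nhr-69 and atfs-1 fell by 0.48 and 0.46 (adjusted p = 0.0478 and 0.0246). In tax-6 null skn-1 was called higher on its 3 probe sets (0.79, 0.51 and 0.89, adjusted p = 0.00942, 0.0163 and 0.0158). So was hlh-30 on its 2 tested probe sets (0.79 and 0.6, adjusted p = 0.00105 and 0.0178). nhr-66 was called higher there on its brightest probe set (0.51, adjusted p = 0.0269) but not on its other (0.16, adjusted p = 0.464). Those tax-6 null calls were not rerun under the alternatives. The brightest probe sets of nhr-23, skn-1, hlh-30 and atfs-1 can bind related transcripts. All of these aak-2 o/e calls, that of nhr-68 there, and those of nhr-10 in crh-1 null and nhr-114 in tax-6 null were lost when single arrays were left out, with adjusted p up to 0.178.

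The list of fasting and lipid droplet lipolysis genes holds lipases and carnitine palmitoyltransferases, which feed fatty acids into beta-oxidation, and the lipid droplet genes lid-1 and plin-1. Of its 11 tested genes, 0 were called in crh-1 null, and 1 or 2 passed there without single arrays, among them 2 without replicate 1 of crh-1 null, and 4 with array weights. Among the same 11, 2 rose and 5 fell in tax-6 null, and 0 rose and 5 fell in aak-2 o/e, with medians of -0.36 and -0.38, beside -0.09 and -0.15 over all genes. The shares called were 0%, 63.6% and 45.5%, beside 20.6%, 45% and 33.5% of all genes. The lysosomal lipase genes lipl-1 and lipl-2 rose by 1.39 and 0.89 in tax-6 null (adjusted p = 0.000759 and 0.00106) and fell by 1.64 and 0.71 in aak-2 o/e (adjusted p = 0.000339 and 0.00631). cpt-6 fell in both strains, by 0.92 in tax-6 null (adjusted p = 0.000169) and by 0.61 in aak-2 o/e (adjusted p = 0.00444). In tax-6 null lipl-5 fell by 0.85 (adjusted p = 5.04e-05) and cpt-4 by 0.66 (adjusted p = 0.00313). The probe sets of cpt-4 and cpt-6 can bind related transcripts.

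**Figure D5:**
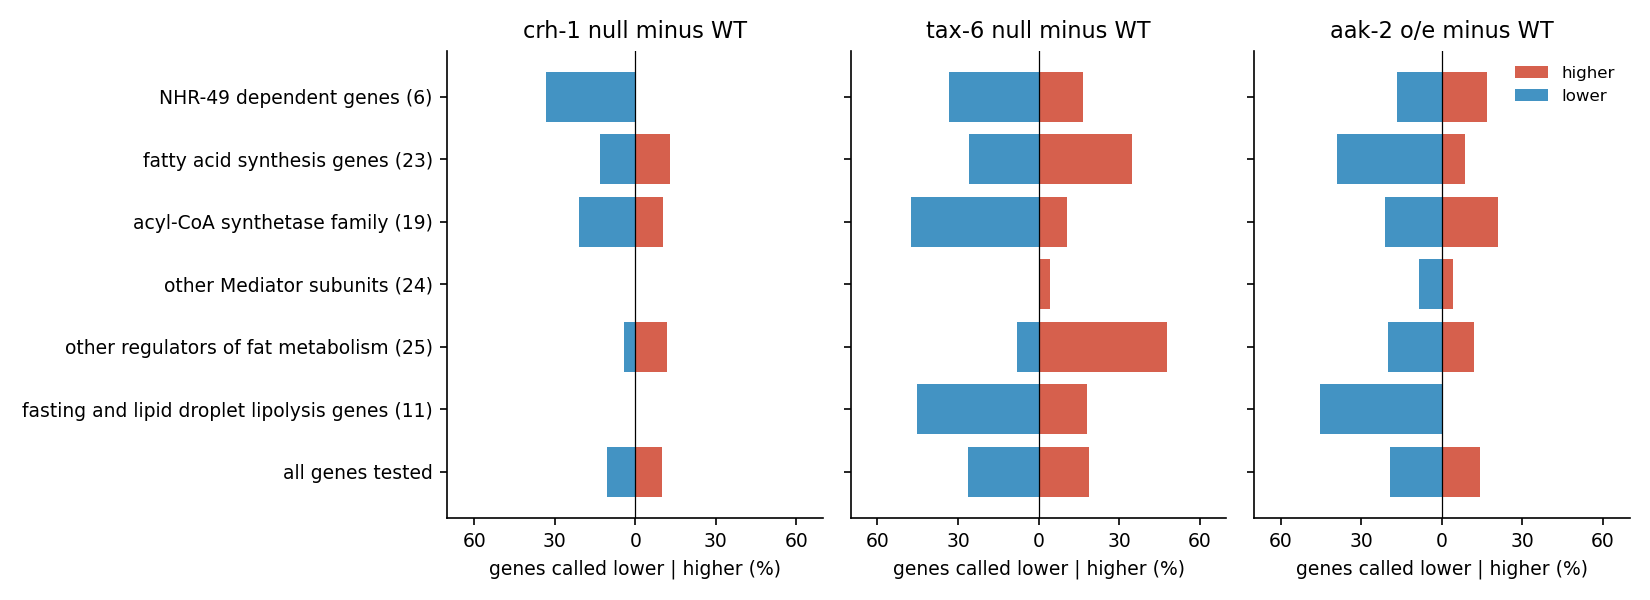
Percent of tested genes of each list called lower (left of 0) or higher (right of 0) than WT, 1 panel per strain, with the number tested in parentheses and all 10365 genes in the bottom row. Mediator subunits lie below the share of all genes in each strain, and the lists of fatty acid synthesis, acyl-CoA synthetase and lipolysis genes hold both directions in tax-6 null.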

How the data were processed

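RNA of 12 pools (4 strains, 3 replicates each) was measured on Affymetrix arrays. The values are the log2 table the authors deposited, with 22625 probe sets. Per the submitters' processing notes, GCOS 1.4 and GCRMA were used to make it, and neither the version nor the settings of GCRMA were analysed here. The table has a floor: 29.8% of values lie within 0.1 of the lowest, 2.11, which compresses differences of dim probe sets. The number of arrays limits the precision, and signal over background takes the place of depth.

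Probe sets were named from the platform annotation, with symbols updated through gene IDs: 20766 have 1 symbol (20701 of them matched to the gene table), 887 several and 895 none, and 77 are controls. A probe set shared by mdt-15 and R12B2.6, at 2.11 to 2.31, was not used. No coordinates are given, since the annotation names no build. Controls were dropped, and 13396 probe sets at log2 4 or more on 3 or more arrays were tested. A gene was read from the brightest of its tested probe sets (10365 genes).

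Contrasts came from lmFit and eBayes of limma 3.58.1 (R 4.3.3), with 1 mean per strain over all 12 arrays and 8 residual and 3.63 prior degrees of freedom. P-values were two-sided and adjusted by Benjamini-Hochberg across the whole set of tested probe sets, with calls under 0.05. The code was tested on simulated data. The 6 comparisons share arrays, so their calls are not independent. The members, lists and tests were chosen with earlier results of these data known. Named were all member probe sets, the 5 genes most like acs-2, the detected members of lists of 10 or fewer genes, and up to 3 called genes each way per strain from longer lists. List counts leave out acs-2. The planned tests of acs-2 between crh-1 null and WT and between tax-6 null and the aak-2 o/e strain are not given, since the gene was chosen for its levels in these arrays. Alternatives covered normalization, filters, the replicate block, samples, weights, prior, averaging of probe sets and each array left out.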

Additional observations from a re-analysis of the deposited data

How the results depend on the processing

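The acs-2 differences, which carry no test, kept their direction in all 240 values under the alternatives, and 0 moved by more than the pooled standard deviation between replicates. On the first probe set that standard deviation was 0.78, and 0.43 without replicate 1 of crh-1 null. The array that most changed the crh-1 null difference thus also widened this measure, which cannot show that the difference is stable. In crh-1 null the first probe set ran from -1.88 to -0.76 over the arrays left out in turn. The array weights fit stopped short of its convergence tolerance. The number of probe sets called stayed within 1.5 times in all 120 values. Of the 13 calls among the 36 regulator differences, 7 held in every alternative and 6 were lost in at least 1, and 12 differences that missed the threshold passed in at least 1. The same alternatives for the list genes were added after seeing the data: of 64 calls rerun, 44 held in all 20 and 20 were lost in at least 1. Of 441 counts per list, 61 moved by over 1.5 times.

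Signs changed 11 times with an array left out, for 0 called values: nhr-80 in crh-1 null ran from -0.03 to 0.1, the first nhr-49 probe set in aak-2 o/e from -0.18 to 0.07, sbp-1 in aak-2 o/e from -0.01 to 0.28, sbp-1 between tax-6 null and crh-1 null from -0.16 to 0.1, fat-6 in crh-1 null from -0.12 to 0.02 and ech-1.1 in aak-2 o/e from -0.18 to 0.15. The cause was not tested. Replicate numbers did not pair the arrays: of 18 same-numbered pairs, 1 had deviations correlated above 0.1 (range -0.249 to 0.138). With the replicate block, the called differences of tax-6 null from aak-2 o/e in the first nhr-49 probe set (0.43) and sbp-1 (0.42) missed the threshold, as did elo-7 in crh-1 null and hlh-30, let-19 and nhr-69 in aak-2 o/e. The block changed no other call of a member, or of a named list gene among those rerun. Values near the floor limit what dim genes can show.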

Other observations

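On replicate 1 of crh-1 null, the array on which acs-2 was lowest for its strain, few other genes stood apart, and the following were chosen after their values were seen. Its log2 value minus the mean of the other 2 arrays was -1.64 for T23B12.5, -1.39 for F32D8.11, -1.24 for H01M10.1, -1.21 for nas-7, of the astacin protease class, and -1.19 for asp-17. Above the other arrays were dsl-5, of the class of Notch ligands (1.51), F53C3.5 (1.35), and cnc-2 and cnc-4, of the caenacin antimicrobial peptide class (1.2 and 1.05). These are single-array values with no test.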
